A study of Mus musculus with 12 samples.

Results

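Cells remove superoxide and peroxides with a small set of enzymes that sit in different compartments. Superoxide dismutases turn superoxide into hydrogen peroxide, catalase splits hydrogen peroxide in peroxisomes, and glutathione peroxidases and peroxiredoxins reduce hydrogen peroxide and organic peroxides with electrons that come from glutathione or thioredoxin, and so in the end from NADPH. In heart muscle much of the superoxide arises at the mitochondrial respiratory chain, so the matrix enzymes Sod2 and Prdx3 stand closest to that source. The 10 genes described here are 3 dismutases (Sod1, Sod2 and Sod3), catalase (Cat), 3 glutathione peroxidases (Gpx1, Gpx3 and Gpx4) and 3 peroxiredoxins (Prdx1, Prdx3 and Prdx5), taken by name from the 51912 genes of the deposited table. All 10 were among the 13865 genes with enough reads to be tested.

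RNA was sequenced from heart ventricles of mice in 12 libraries, 3 each from LCHADD females, WT females, LCHADD males and WT males. LCHADD stands for a deficiency of long-chain 3-hydroxyacyl-CoA dehydrogenase, an enzyme by which mitochondria break down long-chain fatty acids, and the study asked how ventricles of a mouse model with this defect differ from wild type (WT) in each sex. The mice were untreated, and the labels give no strain, age or hour of collection, nor how the deficiency was made. They do not say that each library came from its own animal, so p-values measure the spread between these libraries.

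Between 15.6 and 23.2 M reads (M, mega) were assigned to genes per library. Values are normalised reads, which are a library's reads for a gene divided by 1 size factor of that library. Genes of the mitochondrial genome took 31.0 to 37.9% of the reads in LCHADD libraries and 27.5 to 32.7% in WT libraries. Hadha, which encodes the subunit with the deficient activity, had 23343 to 25688 normalised reads in LCHADD females and 21430 to 23126 in WT females, and 27283 to 28083 in LCHADD males and 23402 to 25845 in WT males. LCHADD libraries lay above WT libraries of the same sex, and a read count does not check a change of sequence. The ventricular identity of the tissue was clear from its markers: Myl2, the ventricular myosin light chain, averaged 106087 normalised reads in LCHADD and 127422 in WT, while Myl7, its atrial counterpart, averaged 2.26 in LCHADD and 0.835 in WT. Summed levels of 10 ventricular cardiomyocyte markers were 846631 to 1178830 normalised reads in LCHADD females and 1521370 to 1615900 in WT females. In males the same sum was 1239570 to 1397950 in LCHADD and 1521730 to 1612410 in WT. In a bulk tissue, fewer cells of a type and less RNA per cell cannot be told apart.

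Of the 10 genes, 5 rose in LCHADD ventricles in each sex, and none of these 5 belongs to the mitochondrial matrix alone. Catalase, the cytosolic dismutase Sod1, the cytosolic peroxiredoxin Prdx1, Gpx4, which reduces lipid peroxides, and the secreted Gpx3 were 1.44 to 1.95-fold of WT in females and 1.28 to 1.66-fold in males. The 2 genes for matrix enzymes went apart and moved less: Sod2 was 0.820-fold and Prdx3 1.17-fold of WT in females, and neither passed the test in males. Prdx5, which is found in mitochondria, peroxisomes and cytosol, was 0.840-fold of WT in females. Gpx1, found in cytosol and mitochondria, and the secreted dismutase Sod3 did not pass in either sex. A difference between compartments was not tested.

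Genes were tested with limma on log2 of the normalised reads plus 1, and a gene passed when its p, adjusted by Benjamini and Hochberg's method over the 13865 genes, was under 0.05. In females 6 of the 10 enzyme genes rose, 2 fell and 2 did not pass, where 16.7% of all tested genes rose and 17.2% fell. In males 5 of the 10 rose and 5 did not pass, where 7.71% of all tested genes rose and 7.77% fell. No member passed as lower in males with limma, edgeR or DESeq2, and 1 (Prdx5) was lower there at an unadjusted p under 0.05, as were 14.9% of all tested genes. In the mean of both sexes 6 rose, 2 fell and 2 did not pass, where 20.3% of all tested genes rose and 20.6% fell. The median log2 change of the 10 genes was 0.37 in females, where that of all tested genes was -0.0035. It was 0.24 in males, against 0 for all tested genes, and 0.29 for the mean of both sexes, against -0.0019.

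The groups themselves could be separated for most of the genes that passed. In females 6 of the 10 genes had 3 LCHADD libraries that all lay above the 3 WT libraries, as did 22.2% of all tested genes. In males this held for 6 of the 10 as well, against 19.6% of all tested genes. For 6 genes all 6 LCHADD libraries lay above all 6 WT libraries, against 9.82% of all tested genes. These 6 were Cat, Sod1, Prdx1, Gpx3, Gpx4 and Prdx3.

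**Figure D1:**
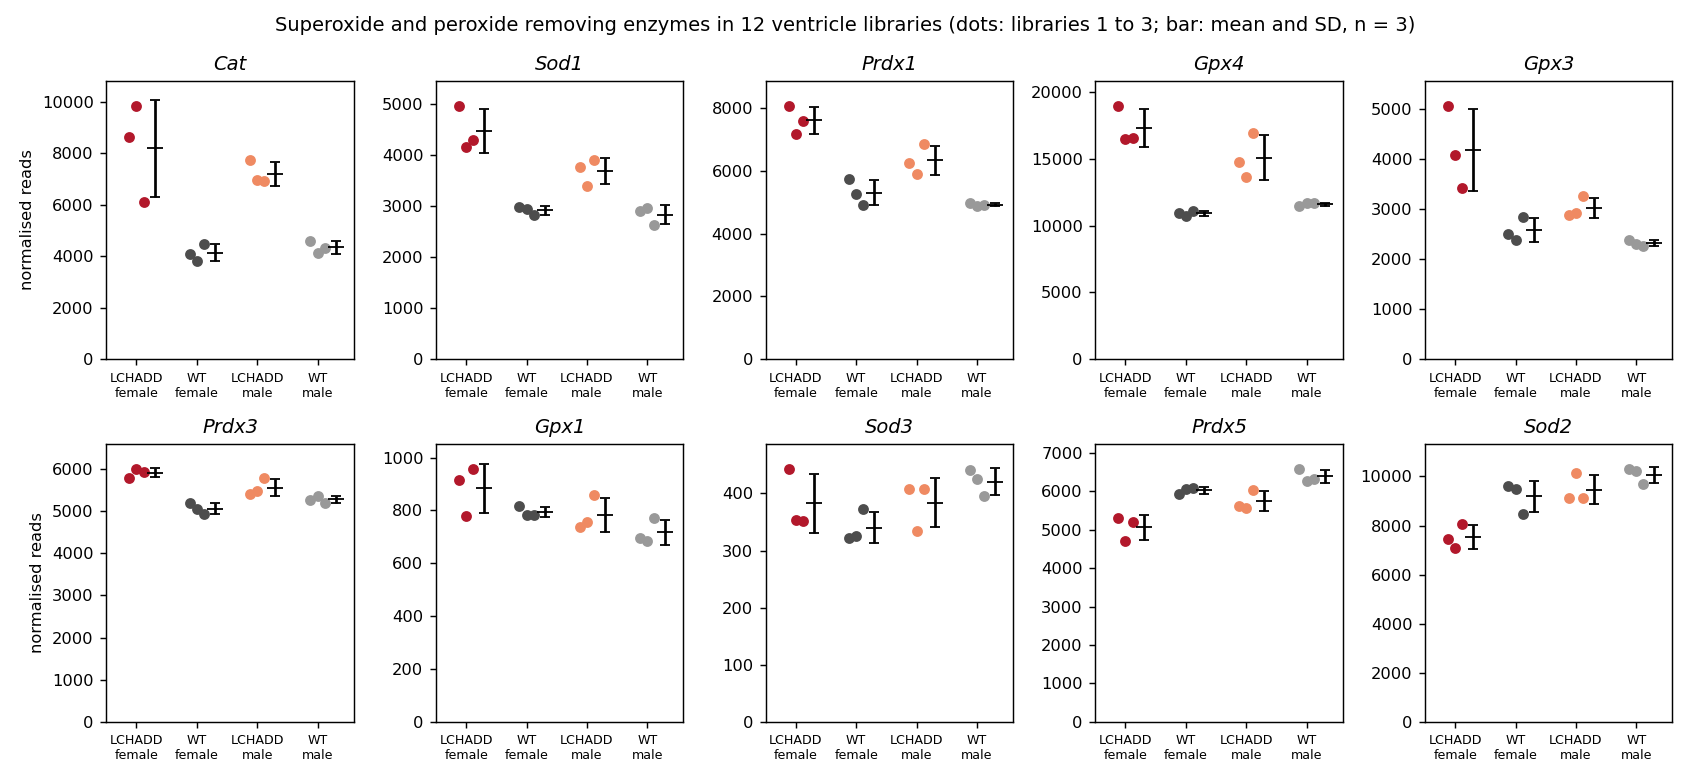
Normalised reads of the 10 enzyme genes (vertical axes, each starting at 0) in the 3 libraries of LCHADD females, WT females, LCHADD males and WT males (dots), with the group mean and SD (bars, n = 3). The LCHADD dots lie above the WT dots of the same sex for Cat, Sod1, Prdx1, Gpx4, Gpx3 and Prdx3, and the lowest dots of Sod2 and Prdx5 are those of LCHADD females.

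To show the DNA in front of genes that behaved differently, the stretch from 250 to 41 bases before the start was taken from RefSeq promoters (build GRCm38.p6) for Cat, Sod1 and Prdx1, which rose in each sex, and for Sod2, which fell in females. Each is written 5′ to 3′ on the strand of its gene, and capitals mark a match to the core of the antioxidant response element, TGACNNNGC, the element bound by NRF2.
Cat, chr2:103485194-103485403, minus strand: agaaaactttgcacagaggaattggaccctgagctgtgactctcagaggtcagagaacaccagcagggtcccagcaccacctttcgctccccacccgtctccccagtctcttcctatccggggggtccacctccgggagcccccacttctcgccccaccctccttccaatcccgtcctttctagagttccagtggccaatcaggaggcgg
Sod1, chr16:90220512-90220721, plus strand: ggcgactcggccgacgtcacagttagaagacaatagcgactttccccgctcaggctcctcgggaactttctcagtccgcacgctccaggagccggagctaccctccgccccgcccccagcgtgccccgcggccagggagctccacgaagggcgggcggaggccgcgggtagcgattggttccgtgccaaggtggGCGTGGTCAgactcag
Prdx1, chr4:116685349-116685558, plus strand: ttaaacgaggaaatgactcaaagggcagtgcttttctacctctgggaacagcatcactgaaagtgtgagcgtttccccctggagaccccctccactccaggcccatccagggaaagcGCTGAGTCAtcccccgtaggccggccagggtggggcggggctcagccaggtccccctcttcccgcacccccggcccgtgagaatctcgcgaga
Sod2, chr17:13007589-13007798, plus strand: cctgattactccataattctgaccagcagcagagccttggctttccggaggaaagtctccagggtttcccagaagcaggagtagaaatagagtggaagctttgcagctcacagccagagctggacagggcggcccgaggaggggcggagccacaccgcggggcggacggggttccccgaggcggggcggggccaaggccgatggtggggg
Windows were present for 9 of the 10 genes, and 12 in all. Gpx4, which has several starts, had 4 windows, of which only some overlap. Of these 12 windows, 2 held the element on either strand (16.7%), as did 12.4% of 32851 windows of the same length over all genes. The windows searched run from 250 bases before to 50 after the start, so the printed stretches are their first 210 bases. The matches were at -133 to -125 of Prdx1 and at -56 to -48 of Sod1, counted from the start, and they lie on the strand opposite to the gene, so the capitals read as the reverse complement of the element. TGATGNAA, the C/EBP-ATF response element, TGTTTAC, a FoxO site, the DR1 element of PPAR receptors and the palindromic NRF1 site were searched on both strands and were in none of the 12 windows. They were in 3.97%, 3.65%, 0.04% and 0.971% of all windows. A match is a description of letters only, and a window without one says nothing about the factor.

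Among the dismutases, the cytosolic enzyme and the matrix enzyme moved in opposite directions in females. Sod1 (ENSMUSG00000022982, chromosome 16), the copper and zinc enzyme of cytosol and intermembrane space, had 4959, 4170 and 4292 normalised reads in LCHADD females 1, 2 and 3, against 2992, 2945 and 2824 in WT females 1, 2 and 3. LCHADD males 1, 2 and 3 had 3778, 3399 and 3898 normalised reads of Sod1, against 2895, 2970 and 2620 in WT males. Every LCHADD library lay above every WT library, and the LCHADD females were above the LCHADD males. The log2 change was 0.61 (SE 0.08, adjusted p = 4.77e-05) in females and 0.38 (SE 0.08, adjusted p = 0.0052) in males.

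Sod2 (ENSMUSG00000006818, chromosome 17), the manganese enzyme of the matrix, had 7468, 7078 and 8057 normalised reads in LCHADD females 1, 2 and 3, against 9596, 9486 and 8478 in WT females. LCHADD males had 9142, 10129 and 9111 normalised reads of Sod2, against 10304, 10211 and 9683 in WT males. The female groups did not overlap, with LCHADD lower, while LCHADD male 2 lay within the WT male range. Sod2 fell in females by 0.29 on the log2 scale (SE 0.08, adjusted p = 0.0084), and in males the change was -0.09 (95% interval -0.25 to 0.07, adjusted p = 0.45). The ratio of Sod1 to Sod2 reads was 0.595 ± 0.0659 in LCHADD females, against 0.318 ± 0.0127 in WT females (SD, n = 3). In males that ratio was 0.392 ± 0.0496 in LCHADD, against 0.281 ± 0.0101 in WT (SD, n = 3).

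Sod3 (ENSMUSG00000072941, chromosome 5) encodes the secreted dismutase that binds to the matrix around cells. It had 443, 353 and 352 normalised reads in LCHADD females, against 322, 326 and 372 in WT females. LCHADD males had 409, 334 and 409, against 441, 425 and 396 in WT males. The groups overlapped in each sex. The log2 change was 0.16 in females (95% interval -0.09 to 0.41, adjusted p = 0.31) and -0.14 in males (95% interval -0.39 to 0.11, adjusted p = 0.47). The female change passed with array quality weights, which count libraries that spread more for less (0.37, adjusted p = 0.0019).

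Catalase had the largest change of the 10 genes in each sex. Cat (ENSMUSG00000027187, chromosome 2), whose heme enzyme is the classic marker of peroxisomes, had 8620, 9817 and 6100 normalised reads in LCHADD females 1, 2 and 3, against 4097, 3821 and 4479 in WT females. LCHADD males had 7741, 6964 and 6904 normalised reads of Cat, against 4601, 4117 and 4296 in WT males. Every LCHADD library lay above every WT library, and LCHADD female 3, the lowest of the LCHADD libraries, was also the one with the highest share of mitochondrial genome reads, 37.9%. The log2 change was 0.96 (SE 0.13, adjusted p = 5.28e-05) in females and 0.73 (SE 0.13, adjusted p = 0.0015) in males, which are 1.95 and 1.66-fold. Other peroxisome genes went in both directions: of 22 tested, 6 rose, 4 fell and 12 did not pass in the mean of both sexes, with a median log2 change of 0.06. Of all tested genes, 20.3% rose and 20.6% fell in that mean.

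The 3 glutathione peroxidases carry selenium at the active site, and they did not change alike. Gpx4 (ENSMUSG00000075706, chromosome 10), which reduces lipid peroxides within membranes, had 18941, 16469 and 16546 normalised reads in LCHADD females 1, 2 and 3, against 10913, 10737 and 11119 in WT females. LCHADD males had 14732, 13607 and 16974 normalised reads of Gpx4, against 11455, 11663 and 11678 in WT males. The 6 WT libraries lay close together and below all 6 LCHADD libraries. Gpx4 rose by 0.66 on the log2 scale in females (SE 0.08, adjusted p = 2.64e-05) and by 0.37 in males (SE 0.08, adjusted p = 0.0065). Gpx4-ps2, a pseudogene named after Gpx4, was counted at 732 ± 126 normalised reads in LCHADD and 514 ± 50.04 in WT (SD, n = 6). That is 4.52% of the Gpx4 reads in LCHADD and 4.56% in WT. The sequences of the 2 genes were not compared. Reads may have been shared between the 2 genes, since the counting is not described.

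Gpx3 (ENSMUSG00000018339, chromosome 11), the secreted peroxidase found in plasma and around cells, had 5051, 4082 and 3414 normalised reads in LCHADD females 1, 2 and 3, against 2504, 2389 and 2838 in WT females. LCHADD males had 2885, 2921 and 3257 normalised reads of Gpx3, against 2378, 2303 and 2257 in WT males. Each LCHADD library was above each WT library, and the LCHADD females spread widely, from 3414 to 5051. The log2 change was 0.68 (SE 0.11, adjusted p = 0.000302) in females and 0.38 (SE 0.11, adjusted p = 0.031) in males. The male call was lost when any 1 of the 6 male libraries was left out, with log2 changes of 0.33 to 0.42 and adjusted p-values of 0.0576 to 0.117.

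Gpx1 (ENSMUSG00000063856, chromosome 9), the most widely studied glutathione peroxidase, had 915, 779 and 957 normalised reads in LCHADD females 1, 2 and 3, against 815, 781 and 782 in WT females. LCHADD males had 738, 756 and 858, against 696, 684 and 771 in WT males. The groups overlapped in each sex. The log2 change was 0.15 in females (95% interval -0.05 to 0.35, adjusted p = 0.23), and 0.13 in males (95% interval -0.07 to 0.33, adjusted p = 0.39). Averaged over the sexes it was 0.14 (95% interval -0.0017 to 0.28, adjusted p = 0.11). This average passed without LCHADD female 2 (0.18, adjusted p = 0.018) and with scaling by the reads of nuclear genes (0.18, adjusted p = 0.038), and the female change passed without LCHADD female 2 (0.24, adjusted p = 0.046). With array quality weights each passed, the average at 0.15 (adjusted p = 0.018) and the female change at 0.20 (adjusted p = 0.015). With LCHADD female 2 and WT female 3 left out together, the average passed at 0.18 (adjusted p = 0.032). The ratio of Gpx4 to Gpx1 reads was 19.7 ± 2.11 in LCHADD females, against 13.8 ± 0.417 in WT females, and 19.3 ± 1.08 in LCHADD males, against 16.2 ± 0.975 in WT males (SD, n = 3).

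Of the peroxiredoxins, which reduce peroxides through a reactive cysteine, 1 rose in each sex, 1 rose in females and 1 fell in females. Prdx1 (ENSMUSG00000028691, chromosome 4), of cytosol and nucleus, had 8054, 7175 and 7581 normalised reads in LCHADD females 1, 2 and 3, against 5727, 5253 and 4918 in WT females. LCHADD males had 6233, 5910 and 6840 normalised reads of Prdx1, against 4976, 4886 and 4902 in WT males. No WT library reached the lowest LCHADD library. The log2 change was 0.52 (SE 0.08, adjusted p = 0.000104) in females and 0.36 (SE 0.08, adjusted p = 0.0050) in males.

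Prdx3 (ENSMUSG00000024997, chromosome 19), the peroxiredoxin of the matrix, had 5798, 6005 and 5938 normalised reads in LCHADD females 1, 2 and 3, against 5196, 5058 and 4940 in WT females. LCHADD males had 5401, 5484 and 5783 normalised reads of Prdx3, against 5274, 5373 and 5207 in WT males. The LCHADD libraries were above the WT libraries in each sex, by a narrow gap in males. Prdx3 rose by 0.22 on the log2 scale in females (SE 0.06, adjusted p = 0.0089), and in males the change was 0.07 (95% interval -0.05 to 0.20, adjusted p = 0.45).

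Prdx5 (ENSMUSG00000024953, chromosome 19) encodes the atypical peroxiredoxin of cytosol, mitochondria and peroxisomes. It had 5300, 4698 and 5201 normalised reads in LCHADD females 1, 2 and 3, against 5923, 6073 and 6085 in WT females. LCHADD males had 5617, 5562 and 6042 normalised reads of Prdx5, against 6583, 6261 and 6326 in WT males. LCHADD libraries lay below the WT libraries of the same sex in females and in males. Prdx5 fell by 0.25 on the log2 scale in females (SE 0.07, adjusted p = 0.0084), and in males the change was -0.16 (95% interval -0.30 to -0.01, adjusted p = 0.13). Its exons overlap those of Trmt112 on the opposite strand by 360 bases, and Trmt112 averaged 204 normalised reads, against 5806 for Prdx5. The ratio of Prdx1 to Prdx5 reads was 1.501 ± 0.0382 in LCHADD females, against 0.880 ± 0.0804 in WT females, and 1.101 ± 0.0355 in LCHADD males, against 0.770 ± 0.0128 in WT males (SD, n = 3).

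**Figure D2:**
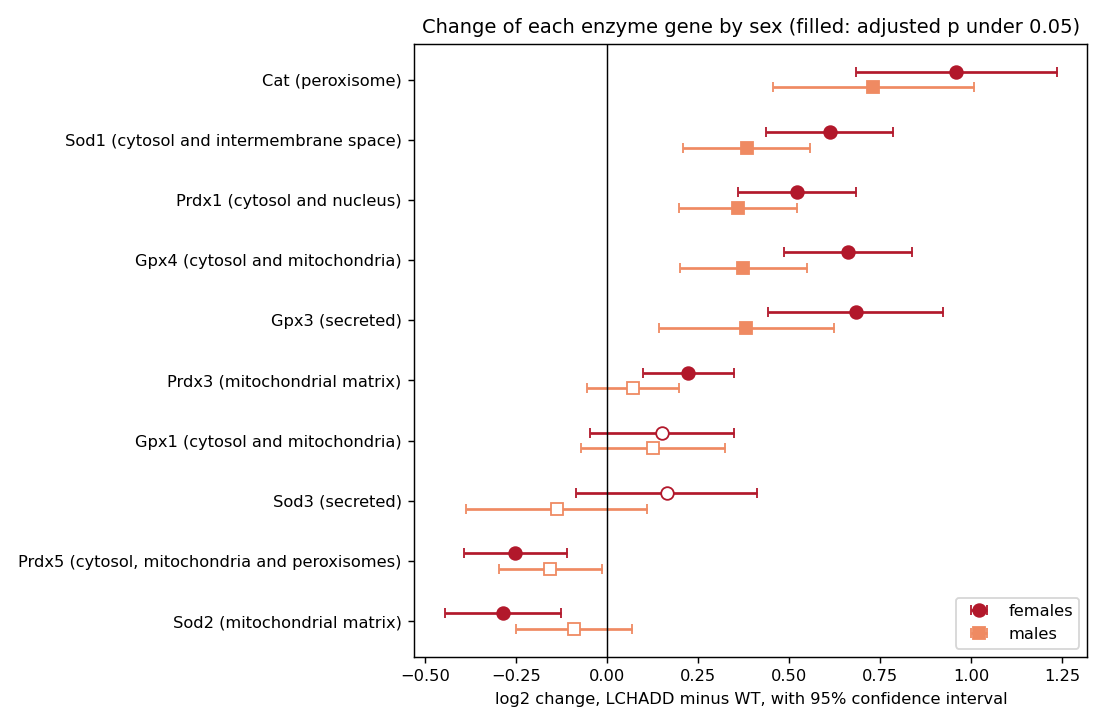
Log2 change of each enzyme gene (horizontal axis, LCHADD minus WT, with 95% confidence intervals from limma) in females (circles) and males (squares), with the compartment of its protein. Filled symbols passed at an adjusted p under 0.05; Cat is at the top with 0.96 in females and 0.73 in males, and Sod2 at the bottom with -0.29 in females and -0.09 in males.

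The female change was the further from 0 for each of the 10 genes, yet the sexes were not shown to differ in their response. The interaction of genotype and sex (the female change minus the male change) passed for 0 of the 10 genes with limma, edgeR and DESeq2, and for 0.00721% of all tested genes with limma. It was below an unadjusted p of 0.05 for 1 of the 10 genes, as for 9.83% of all tested genes. This gene was Gpx4 (0.29, 95% interval 0.04 to 0.54, adjusted p = 0.44). The largest value was that of Sod3 (0.30, 95% interval -0.05 to 0.65, adjusted p = 0.57), close to that of Gpx3 (0.30, 95% interval -0.04 to 0.64, adjusted p = 0.56). With array quality weights the interaction passed for Sod1 (0.34, adjusted p = 0.040), Sod3 (0.49, adjusted p = 0.043), Gpx3 (0.58, adjusted p = 0.012) and Gpx4 (0.42, adjusted p = 0.012).

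Within the LCHADD ventricles, 2 of the 10 genes differed between females and males, where 5.77% of all tested genes did. Gpx3 was higher in LCHADD females, with 4182 ± 823 normalised reads, than in LCHADD males, with 3021 ± 205 (SD, n = 3; log2 difference 0.45, adjusted p = 0.030). Sod2 was lower in LCHADD females, with 7534 ± 493, than in LCHADD males, with 9460 ± 579 (SD, n = 3; log2 difference -0.33, adjusted p = 0.020). DESeq2 called 3 of the 10 as higher and 1 as lower in LCHADD females, where it called 8.57% of all genes to which it gave an adjusted p. edgeR called 1 as higher and 1 as lower, where it called 5.64% of all tested genes. With only the 6 LCHADD libraries in the fit, neither gene passed (adjusted p = 0.164 for Gpx3 and 0.139 for Sod2). Gpx3 also lost its call without LCHADD female 1, LCHADD male 1 or LCHADD male 2 (adjusted p = 0.106 to 0.136) and Sod2 without LCHADD female 1 (0.0609) or LCHADD male 2 (0.122). Among WT ventricles 0 of the 10 genes differed between the sexes with limma, edgeR or DESeq2, where 0.245% of all tested genes passed with limma. Below an unadjusted p of 0.05 with limma was 1 of them (Sod3), as were 7.35% of all tested genes.

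Levels of different genes were compared per kilobase of the longest coding transcript. In LCHADD ventricles Gpx4 led with 16293 ± 1863 normalised reads per kb (SD, n = 6), followed by Sod1 with 6369 ± 830, Prdx5 with 4282 ± 359 and Prdx3 with 3880 ± 164. Prdx1 with 3036 ± 353, Cat with 2943 ± 515 and Gpx3 with 2259 ± 522 came next, before Sod2 with 1450 ± 198, Gpx1 with 778 ± 84.2 and Sod3 with 103 ± 11.4. Of neighbours in this order, Prdx5 and Prdx3, Prdx1 and Cat, and Cat and Gpx3 overlapped between libraries.

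In WT ventricles the order was Gpx4 with 11317 ± 399 normalised reads per kb (SD, n = 6), Prdx5 with 4920 ± 185, Sod1 with 4484 ± 216, Prdx3 with 3501 ± 105 and Prdx1 with 2228 ± 145. Then came Sod2 with 1642 ± 112, Cat with 1621 ± 108 and Gpx3 with 1534 ± 132, which overlapped as neighbours, and Gpx1 with 704 ± 49.0 and Sod3 with 102 ± 13.3. By this length Sod1 stood above Prdx5 in LCHADD and below it in WT. With the length of all exons of a gene in place of the transcript, Sod1 was in place 7 of 10 in LCHADD (1028 per kb) and in place 8 in WT (724 per kb). By that length Cat, with 1621 per kb, and Gpx3, with 1349, stood above Sod2, with 962, in WT as well. Prdx3, with 3501 per kb, then stood above Prdx5, with 2903, in WT. Gpx4, Gpx1 and Sod3 kept their places in each genotype, and Prdx1 and Sod2 kept theirs in LCHADD only. The remaining places depend on the length used.

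**Figure D3:**
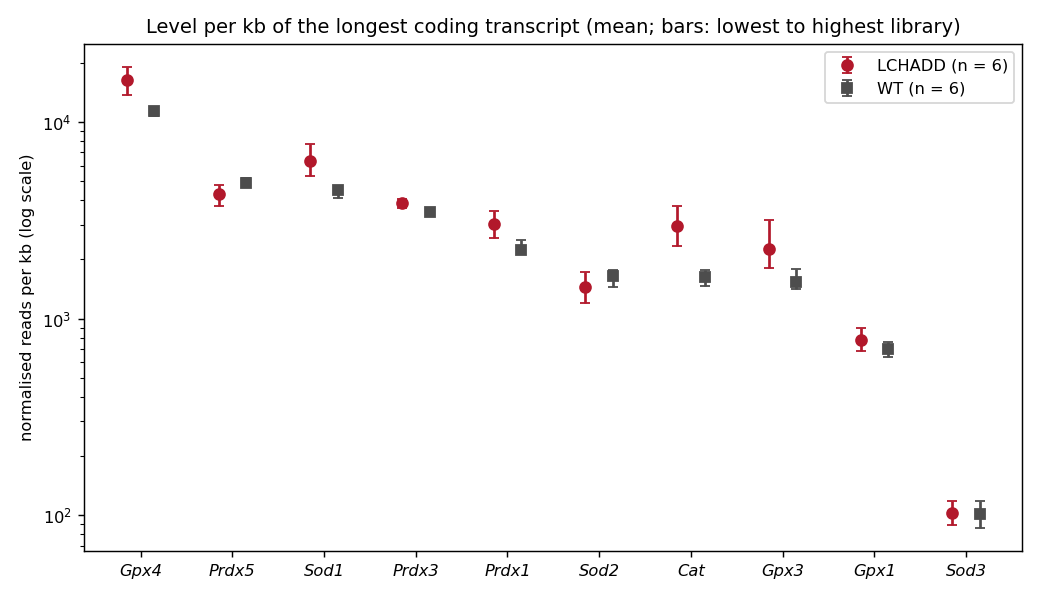
Level of each enzyme gene per kilobase of its longest coding transcript (vertical log axis, normalised reads per kb) in LCHADD (circles) and WT (squares) ventricles, as the mean of 6 libraries with bars from the lowest to the highest library. Gpx4 is highest in each genotype, with 16293 in LCHADD and 11317 in WT, and Sod3 is lowest, with 103 in LCHADD and 102 in WT.

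Across the 12 libraries, the genes whose log2 levels were most like each member were found by Pearson's r, as a description. These libraries differ in genotype, sex and depth. Group means were not removed, so r includes the differences between the groups. Sod1 and Prdx1 had the same nearest gene, the aldehyde reductase Akr1a1 (r = 0.99 for each). Sod2 was nearest to Ndufa10 (0.98), Uqcrc2 (0.98) and Opa1 (0.98), which encode a complex I subunit, a complex III subunit and the inner membrane fusion protein. Cat was nearest to Limk2 (0.99), Map1a (0.99) and Aars (0.99), and Gpx4 to Mlec (0.99), Fam227b (0.98) and Sem1 (0.97). Gpx3 had Dctn3 (0.98), Gmppa (0.97) and Banf1 (0.97), Prdx3 had Tmem147 (0.98), Tomm5 (0.98) and Washc3 (0.97), and Prdx5 had Cirbp (0.97), Ncstn (0.97) and Cyth1 (0.96). After Akr1a1 came Rplp1 and Hsp90ab1 for Sod1 (0.99 and 0.98), and Dstn and Nmrk2 for Prdx1 (0.98 and 0.98). The values were lower for Gpx1, nearest to Ppp1ca (0.94), Arsk (0.90) and Smim8 (0.89), and for Sod3, nearest to Plce1 (0.86), Tm6sf1 (0.84) and Smg8 (0.82).

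Thioredoxin hands electrons to the peroxiredoxins. Of 11 genes for thioredoxins, their reductases, a thioredoxin inhibitor, sestrins and sulfiredoxin, 8 rose and 3 did not pass in the mean of both sexes (median log2 change 0.43). In that mean 20.3% of all tested genes rose and 20.6% fell. In females 6 of the 11 rose, against 16.7% of all tested genes, and in males 3, against 7.71%. Txnip, the thioredoxin inhibitor, was 1 of the 8, with 7508 ± 2186 normalised reads in LCHADD and 4583 ± 1680 in WT (log2 change 0.74, adjusted p = 0.017). Its log2 change was 0.28 in females (adjusted p = 0.535) and 1.19 in males (adjusted p = 0.021). Srxn1, sulfiredoxin, which repairs over-oxidised peroxiredoxins, averaged 1133 ± 581 normalised reads in LCHADD and 422 ± 43.7 in WT (log2 change 1.31, adjusted p = 6.72e-05). Sesn2, a stress-induced sestrin, averaged 272 ± 222 in LCHADD and 79.6 ± 6.56 in WT (1.49, adjusted p = 7.28e-05), and Txndc17, a cytosolic thioredoxin-like protein, 819 ± 159 in LCHADD and 534 ± 35.3 in WT (0.60, adjusted p = 2.8e-06). By sex, Sesn2 passed in females (2.04, adjusted p = 0.000148) and not in males (0.95, adjusted p = 0.051). Txn2, the thioredoxin of mitochondria, averaged 4717 ± 187 in LCHADD and 4842 ± 153 in WT (SD, n = 6 for these genes; log2 change -0.04, and 0.0034 with scaling by nuclear reads), and did not pass.

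Peroxidases outside the 10 genes were mixed: of 8 tested, 2 rose, 3 fell and 3 did not pass in the mean of both sexes (median -0.14). The shares of all tested genes in that mean were 20.3% higher and 20.6% lower. Prdx6, a peroxiredoxin that reduces lipid peroxides with glutathione, rose, with 4591 ± 390 normalised reads in LCHADD and 3114 ± 204 in WT (0.56, adjusted p = 9.84e-07). Mgst3, a membrane glutathione transferase with peroxidase activity, fell, with 2788 ± 460 in LCHADD and 5007 ± 376 in WT (-0.86, adjusted p = 2.65e-07). Pxdn, peroxidasin of the extracellular matrix, fell as well (-0.42, adjusted p = 0.000155), and the cytosolic Prdx2 did not pass, with 4450 ± 324 in LCHADD and 4640 ± 109 in WT (SD, n = 6; -0.06).

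Glutathione, the substrate of the glutathione peroxidases, had 13 tested genes for its synthesis, reduction, breakdown and transport. In the mean of both sexes 8 of them rose, 1 fell and 4 did not pass (median 0.45). Among all tested genes 20.3% rose and 20.6% fell in that mean. Slc7a11, which brings in cystine for glutathione, averaged 166 ± 140 normalised reads in LCHADD and 0.764 ± 1.02 in WT (adjusted p = 1.54e-08), and with WT near 0 the size of its log2 change, 6.45, depends on the added 1. Chac1, which breaks glutathione down, rose by 2.67 (adjusted p = 5.16e-08). Slc25a39, the carrier that brings glutathione into mitochondria, averaged 5671 ± 1688 in LCHADD and 2750 ± 147 in WT (SD, n = 6; 1.00, adjusted p = 5.51e-06). Glrx5, a mitochondrial glutaredoxin for iron-sulfur clusters, did not pass (0.11), and passed with scaling by nuclear reads (0.15, adjusted p = 0.049).

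NADPH, the last electron donor of these chains, is made by enzymes of which 13 were tested. In the mean of both sexes 7 rose, 4 fell and 2 did not pass (median 0.22). For all tested genes the shares were 20.3% higher and 20.6% lower. The cytosolic malic enzyme Me1 averaged 4500 ± 819 normalised reads in LCHADD and 2580 ± 161 in WT (0.79, adjusted p = 1.03e-06), while the mitochondrial malic enzyme Me3 averaged 1130 ± 214 in LCHADD and 1725 ± 53.0 in WT (-0.63, adjusted p = 7.89e-07). Aldh1l2, which makes NADPH in mitochondria from a folate, averaged 1000.2 ± 92.8 in LCHADD and 153 ± 39.2 in WT (SD, n = 6; 2.73, adjusted p = 1.31e-09). Cytosolic Idh1 did not pass (0.01). In females the mitochondrial Idh2 fell, with 22979 ± 672 normalised reads in LCHADD and 40933 ± 285 in WT (SD, n = 3; -0.83, adjusted p = 5.99e-07). LCHADD males had more Idh2 than LCHADD females, with 35086 ± 1768 normalised reads (SD, n = 3).

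Of 16 selenoprotein and selenium genes, 4 rose and 12 did not pass in the mean of both sexes (median 0.08). All tested genes rose in 20.3% and fell in 20.6% of cases there. In females 3 of the 16 rose, as did 16.7% of all tested genes. In males 0 of the 16 passed with limma, edgeR or DESeq2, with 2 below an unadjusted p of 0.05 by each. Limma called 7.71% of all tested genes higher and 7.77% lower in males. Selenof, a selenoprotein of the endoplasmic reticulum, rose by 0.34 (adjusted p = 0.000172), with 0.59 in females (adjusted p = 4.04e-05) and 0.09 in males (adjusted p = 0.50), and Sepsecs, which makes selenocysteine on its transfer RNA, by 0.30 (adjusted p = 0.0073), while Selenop, the selenium carrier, was at 4136 ± 757 normalised reads in LCHADD and 4855 ± 310 in WT (SD, n = 6; -0.25, adjusted p = 0.060). Selenop passed without LCHADD female 3 (-0.33, adjusted p = 0.0045) and with array quality weights (-0.20, adjusted p = 0.0085). Selenot rose by 0.15 (adjusted p = 0.028), and did not pass without any 1 of LCHADD male 3, WT females 1 and 3 and WT males 1 and 3 (adjusted p = 0.051 to 0.0796).

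Of 8 tested genes for copper, zinc and manganese delivery, 1 rose, 1 fell and 6 did not pass in the mean of both sexes (median 0.09). In that mean 20.3% of all tested genes rose and 20.6% fell. Mt1, a metallothionein that binds zinc and copper, rose by 0.48 (adjusted p = 4.52e-06). Mtf1, the metal-sensing transcription factor, fell by 0.22 (adjusted p = 0.044), and did not pass without any 1 of LCHADD female 1, LCHADD males 1 and 2, WT females 1, 2 and 3 and WT males 2 and 3 (adjusted p = 0.0619 to 0.111), nor with scaling by nuclear reads (-0.18, adjusted p = 0.107). Slc39a14, a transporter of manganese and zinc, did not pass (0.14).

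Among 16 tested sources of superoxide and peroxide, 6 rose, 3 fell and 7 did not pass in the mean of both sexes (median 0.12). The shares of all tested genes there were 20.3% higher and 20.6% lower. The 2 monoamine oxidases, which make hydrogen peroxide at the outer mitochondrial membrane, went apart. Maoa averaged 863 ± 630 normalised reads in LCHADD and 66.1 ± 12.6 in WT (3.38, adjusted p = 1.26e-08), and Maob 563 ± 113 in LCHADD and 1111 ± 37.1 in WT (SD, n = 6; -1.01, adjusted p = 6.75e-07). Cyba, a subunit of NADPH oxidases, fell by 0.80 (adjusted p = 3.24e-06), and the peroxisomal oxidase Acox3 did not pass (-0.14), but did without LCHADD female 3 (-0.17, adjusted p = 0.039) and with array quality weights (-0.16, adjusted p = 0.013).

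The NRF2 and FoxO regulators of these enzymes had 14 tested genes. In the mean of both sexes 2 of them rose, 4 fell and 8 did not pass (median -0.0042). Among all tested genes 20.3% rose and 20.6% fell in that mean. Mafg, a small Maf partner of NRF2, rose by 0.53 (adjusted p = 0.000611), Keap1, the NRF2 inhibitor, fell by 0.26 (adjusted p = 0.0054), and Foxo4 fell by 0.39 (adjusted p = 0.000108). Ppargc1a, a coactivator of mitochondrial and antioxidant genes, did not pass (0.35, adjusted p = 0.059), and passed with edgeR (0.36, adjusted p = 0.048), DESeq2 (0.37, adjusted p = 0.025), array quality weights (0.37, adjusted p = 0.0020) and scaling by nuclear reads (0.39, adjusted p = 0.032). It also passed without LCHADD female 2 (0.49, adjusted p = 0.000253), without WT female 2 (0.44, adjusted p = 0.020), and when LCHADD female 2 and WT female 3 were left out together (0.43, adjusted p = 0.000808).

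Peroxisome and matrix genes give the setting of catalase and of Sod2. Among the 22 peroxisome genes, Pex11a, which divides peroxisomes, rose by 0.77 (adjusted p = 0.000967) and Hsd17b4, of peroxisomal oxidation, by 0.37 (adjusted p = 0.000272), Pxmp2, a membrane channel, fell by 0.85 (adjusted p = 9.15e-06), and the import factor Pex19 did not pass (0.07). Of 15 genes listed for mitochondrial content, among them matrix dehydrogenases, 1 rose, 5 fell and 9 did not pass in the mean of both sexes (median -0.02). For all tested genes the shares in that mean were 20.3% higher and 20.6% lower. Idh3b fell by 0.32 (adjusted p = 2.39e-05), Sucla2 by 0.38 (adjusted p = 2.17e-05) and Sdha by 0.33 (adjusted p = 7.68e-05), beside the fall of Sod2 by 0.19 in the same mean of both sexes (adjusted p = 0.010). Ogdh, the most abundant that did not pass, was at -0.0015, and at 0.04 with scaling by nuclear reads.

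**Figure D4:**
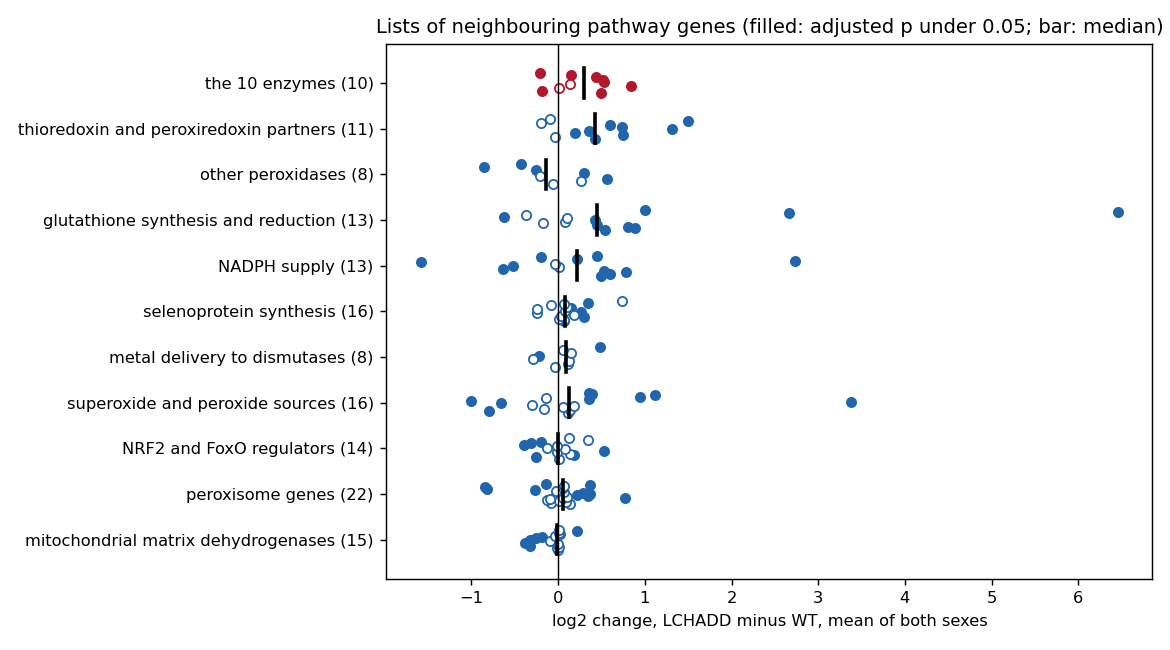
Log2 change of each gene (dots; horizontal axis, LCHADD minus WT, mean of both sexes) in the 10 enzymes (top row) and in 10 lists of neighbouring pathway genes, with the number tested in brackets; filled dots passed at an adjusted p under 0.05 and bars are medians. The medians are 0.29 for the 10 enzymes, 0.45 for glutathione genes, 0.43 for thioredoxin partners and -0.14 for other peroxidases; the dot at 6.45 is Slc7a11, whose size depends on the added 1.

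Markers of other cells moved as well. Among all tested genes 16.7% rose and 17.2% fell in females, and 7.71% rose and 7.77% fell in males. Of 9 fibroblast markers, 8 fell in females and 3 in males, with a summed level of 7711 to 8300 normalised reads in LCHADD females, against 11331 to 12549 in WT females, and 9239 to 9596 in LCHADD males, against 11932 to 12899 in WT males. All 5 tested erythroid markers fell in each sex, with sums of 1915 to 4352 in LCHADD females, against 6975 to 12561 in WT females, and 4244 to 4489 in LCHADD males, against 8975 to 10961 in WT males. Of 9 endothelial markers, 5 fell in females and 4 in males (sums of 14534 to 17703 in LCHADD and 17449 to 20578 in WT). Of 9 macrophage markers, 3 rose in females, and the sums overlapped in each sex. These sums were 4153 to 5700 in LCHADD females and 3661 to 4165 in WT females. In males the sums were 3553 to 5107 in LCHADD and 3990 to 5235 in WT. Of 4 atrial markers tested of 6, 1 rose in females and 2 in males, and the sum of the 6 was 317 to 399 in LCHADD females, against 223 to 301 in WT females, and 281 to 421 in LCHADD males, against 214 to 309 in WT males. Of these, Bmp10 averaged 71.1 in LCHADD and 3.22 in WT, Nppa 201 in LCHADD and 189 in WT, and Sln 0.366 in LCHADD and 0.453 in WT. Smooth muscle markers fell for 2 of 7 in females and 3 of 7 in males. Of 10 ventricular cardiomyocyte markers, 9 fell in females and 3 in males. Neutrophil markers summed to 24.0 to 71.7 in LCHADD and 38.2 to 67.3 in WT, with Mpo at 0 in all 12 libraries, and adipocyte markers to at most 18.0 in LCHADD and 48.8 in WT. Red cells carry much catalase, Gpx1 and Prdx2, and the erythroid sum was lower in LCHADD where Cat was higher. The part of cell makeup and of the mitochondrial share of reads in the changes of the 10 enzyme genes was not tested.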

How the data were processed

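Per the labels, total RNA of fresh heart ventricle was extracted with a fibrous tissue kit and sequenced on an Illumina NovaSeq instrument. The deposited table holds a signal per gene and library: divided by the smallest step of its library, each value came out whole (100.0% in each library, to within 0.01), so the authors had divided read counts by a size factor. Per the submitters' processing notes, bcl2fastq, DESeq2 and build GRCm39 were used, without versions. How reads were aligned and counted, and with which annotation and strand setting, is not given in the sources used here. Of 51912 Ensembl IDs, 51633 were matched to a symbol in GENCODE vM21 (GRCm38).

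Genes with at least 10 normalised reads in at least 3 libraries were fitted together in R 4.3.3 with limma 3.58.1 (trended eBayes) as 4 group means of log2 of the value plus 1. Limma's adjusted p is meant where no tool is named. Intervals are 95% intervals of that fit. Alternatives were run with edgeR 4.0.16 and DESeq2 1.42.0 on the recovered reads, and with other filters, scalings and library sets. The procedure was tested on simulated data.

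The 10 genes, the pathway lists, the marker lists and the tests were chosen with earlier results of these data known. All 10 genes are named. From each pathway list the text names up to 3 genes with the smallest adjusted p in the mean of both sexes and the most abundant gene that did not pass, and for each of the 10 the 3 genes with the highest Pearson r. Idh2 and Txnip are named besides these. Of 215 listed genes, 214 were matched, 2 of them by an older symbol. Marker lists cover ventricular and atrial cardiomyocytes, endothelium, fibroblasts, smooth muscle, macrophages, neutrophils, red cells and adipocytes. No libraries of a group agreed within sampling noise (chi-square per degree of freedom 4.73 to 55.0).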

Additional observations from a re-analysis of the deposited data

How the results depend on the processing

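Of 1060 alternative values for the 10 genes (40 results in the genotype comparisons and their interaction), 1016 kept the direction and the side of the threshold, 21 lost a call, 12 gained one and 11 changed sign. When a change of 1.5-fold was required as well, 1 member was higher in males (Cat) and 1 in the mean of both sexes (Cat), and 0 were lower in females or in the mean, where the adjusted p alone gave 2 lower in each. With array quality weights 1 member, Prdx5, was lower in males, 8 were higher in females (6 without weights, with Sod3 and Gpx1 added) and 7 in the mean of both sexes. No alternative changed the sign of a call.

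Calls among all genes moved more. With the 1.5-fold threshold they were 2461 (4692 without it) in females, 1087 (2146) in males, 2033 (5661) in the mean and 311 (800) between LCHADD sexes. With array weights they were 3601 in males, 749 (1) for the interaction, 3121 between LCHADD sexes and 133 (34) between WT sexes. With only the groups compared they were 3342 in males, 82 between LCHADD sexes and 142 between WT sexes. DESeq2 gave 101 for the interaction and 87 between WT sexes, edgeR 2 and a filter at 50 2 for the interaction. With LCHADD female 2 and WT female 3 left out, which was decided after seeing the data, they were 3317 in males, 9 for the interaction and 73 between WT sexes. Leaving out each library in turn gave 1317 (without LCHADD male 1 or WT male 3) to 3293 (without LCHADD female 2) in males, 0 to 186 (without LCHADD female 3) for the interaction, 215 (without LCHADD male 2) to 1643 (without LCHADD female 3) between LCHADD sexes and 17 to 105 (without LCHADD female 2) between WT sexes. The cause was not tested.

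Values near 0 changed sign: with scaling by nuclear reads, Txn2 (0.0034) and Ogdh (0.0398), and with 1 library left out, Sod3 in the mean (-0.0416 to 0.0611), Idh1 (-0.0579 to 0.12), Ogdh (-0.0334 to 0.0193) and the Gpx1 interaction (-0.036 to 0.11). Scaling by nuclear reads moved the median of all genes by less than 0.1 log2.

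Libraries with the same number did not vary together (r of -0.05 to 0.03 over 6 pairs). The labels give no pairing, and such correlations between single libraries cannot exclude it, so the main fit used no pairs. With the replicate number as a block, 4502 genes passed in females, 2016 in males, 5482 in the mean, 1 for the interaction, 541 between LCHADD sexes and 31 between WT sexes. The members' calls were 6 higher and 2 lower in females and in the mean and 5 higher in males, and Gpx3 between LCHADD sexes missed the threshold (adjusted p = 0.0513). With 3 libraries a group, small changes such as those of Gpx1 are not resolved.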

Other observations

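Nnt, the mitochondrial transhydrogenase that makes NADPH for the matrix peroxidases, was looked at after its values were seen. It had 4.85 to 25.0 normalised reads in LCHADD libraries (median 18.8, n = 6), against 8.63 to 24.3 in WT libraries (median 16.6, n = 6), and the ranges overlapped. The labels name no strain, and the gene is known to be disrupted in C57BL/6J mice.

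The pseudogene Gpx4-ps2 had a log2 change of 0.73 in females (SE 0.12, adjusted p = 0.000285) and 0.27 in males (SE 0.12, adjusted p = 0.151). It followed Gpx4 in level, at 4.76% of the Gpx4 reads in LCHADD females, 4.55% in WT females, 4.24% in LCHADD males and 4.57% in WT males.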
